A study of Macaca mulatta with 24 samples.

Results

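The transcription factor NRF2 (gene NFE2L2) switches on antioxidant and detoxifying enzymes, and 9 of its target genes were followed here in airway epithelium exposed to wood smoke: HMOX1, NQO1, SRXN1, AKR1C1, PGD, TXNRD1, GCLM, GCLC and TXNRD3. They were taken by symbol from a table of 35432 genes. Each symbol matched 1 gene, and all 9 passed the filter on low values (10 or more in 4 or more libraries), which left 14062 genes for testing. The cells were primary tracheobronchial epithelial cells of 4 adult female rhesus macaques, S1 to S4. They were grown in equal parts of BEGM and DMEM with retinoic acid on porous Transwell inserts and differentiated at an air–liquid interface. For 6 hours a day, cultures of every animal received either whole wood smoke, diluted, or filtered air, and poly-A RNA was sequenced in 24 libraries. There were 6 groups with 1 library of each animal (n = 4): a filtered air and a wood smoke group after 1 day, after 5 days, and after 5 days plus 7 days of recovery. S1 was 5463 days old and weighed 5.59 kg, S2 was 2930 days old and weighed 7.17 kg, S3 was 2238 days old and weighed 4.56 kg, and S4 was 1128 days old and weighed 3.18 kg. Age, weight and animal cannot be told apart, and epithelium in culture lacks the blood supply and immune cells of an airway.

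In unstressed cells the adaptor KEAP1 holds NRF2 and directs it to degradation. Oxidants and electrophiles, both abundant in smoke, modify KEAP1, and the NRF2 that then accumulates binds antioxidant response elements together with small MAF proteins, in competition with the repressor BACH1. NRF2 is controlled largely at the protein level, so the RNA of its targets is a usual readout of its activity. In airway epithelium these targets remake glutathione and reduced thioredoxin, supply NADPH, and reduce quinones and carbonyls carried by inhaled smoke.

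The values were normalized counts, scaled per library by the authors, with totals of 11.8 to 15.2 M per library. Whole reads could not be recovered from them, so the precision of a value is given by the spread between animals. One library, S1 in air at 5 days, stood apart: its median correlation with the other libraries was 0.86, against a median of 0.9475 over libraries. It also had the highest normalized total (15.2 M). KRT5 (basal cells) and FOXJ1 (ciliated cells) were present in every library. Genes listed for cells outside the epithelium were in part present. Of the leukocyte list 3 of 5 genes passed the filter (LYZ, CD68 and CD14, not PTPRC or CD3E), with a summed level of 2446 to 5378 normalized counts over libraries, most of it LYZ. Of the fibroblast list 4 of 6 passed (378.4 to 730.7 summed), with LUM at 0 in every library and DCN below the filter, and of the endothelial list 2 of 3 (70.26 to 261.9), with CDH5 at 0 in every library. The 2 ionocyte genes, FOXI1 and ASCL3, were below the filter (0 to 2.475). The marker sums are given as values beside the results they move with, since 4 libraries against 4 allow no p below 0.0286 (exact permutation test, two-sided), which cannot pass an adjustment over 36 such comparisons unless many reach it, and the test does not pair the animals. In bulk RNA, fewer cells of a type and less RNA per cell cannot be told apart.

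**Figure D1:**
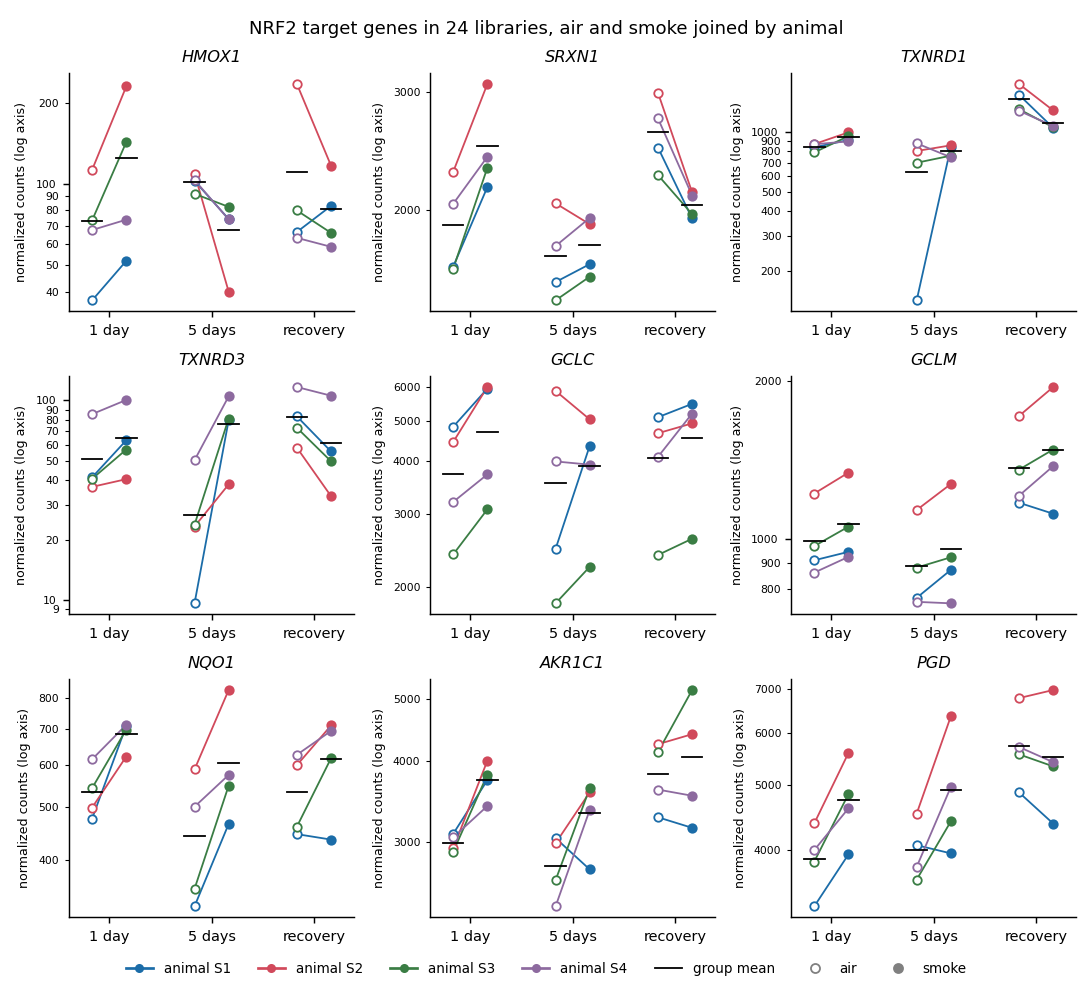
Normalized counts (log axis, own scale for each gene) of the 9 NRF2 target genes in 24 libraries at 1 day, 5 days and recovery, with air as open and smoke as filled points, lines joining the air and smoke library of an animal, and black bars for the group mean. At 1 day every line goes up, at 5 days the lowest TXNRD1 and TXNRD3 points belong to S1 in air, and after recovery the lines of SRXN1, TXNRD1 and TXNRD3 go down in every animal.

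After a single 6-hour exposure all 9 genes were higher in smoke than in air in 4 of 4 animals, so that 36 of 36 animal-matched pairs pointed the same way. Over all genes tested, 16.2% were higher in all 4 animals. The differences were small, from 0.10 for GCLM to 0.64 for HMOX1 on the log2(value + 1) scale on which every fit was made. In the limma fit of 24 libraries without the animal 0 of 9 passed an adjusted p (Benjamini-Hochberg) of 0.05, against 0.0284% of all genes. An unadjusted p under 0.05 was held by 2 of the members and by 265 of 14062 genes. In the fit of the 1-day libraries alone with the animal as a term (the paired 1-day fit), 7 of the 9 rose, where 4.25% of all genes rose and 9.11% changed in either direction. The members were chosen with earlier results of these data known, so their counts beside all genes are a description and not a separate test.

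The difference between these fits lay in the spread they assigned, since the estimates were the same. With the animal added to the 24 libraries 0 of 9 passed, against 0.0782% of all genes, and SRXN1 was the nearest (adjusted p = 0.0502). Of the members 4 had an unadjusted p under 0.05, as did 634 of 14062 genes. When S1 in air at 5 days was also left out, which touches no 1-day value and acts through the shared spread, SRXN1 (adjusted p = 0.00297) and PGD (adjusted p = 0.00504) rose. There 0.96% of all genes changed in either direction. In the paired 1-day fit, 5 members rose without S1, without S2 or without S3, where 1.7%, 2.15% and 1.22% of all genes rose, and 6 rose without S4, where 2.02% did. NQO1, SRXN1, AKR1C1, PGD and GCLC passed each time, HMOX1 passed without S4, and TXNRD1 passed in none of these.

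Normalized totals did not overlap at 1 day: they lay between 11.84 and 12.62 M in air and between 12.81 and 13.48 M in smoke. With totals made equal, 6 of the 9 members rose in the paired 1-day fit (the 7 without TXNRD1), where 1.37% of all genes rose. Over all genes the split was 597 higher and 684 lower as deposited, and 192 higher and 1813 lower with equal totals. With equal totals 35 of 36 pairs were higher, and the lower pair was of GCLM.

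Some single marker genes moved in the same fit, where 9.11% of all genes changed in either direction. The other genes of their lists are not given 1 by 1. The basal gene TP63 (−0.36 ± 0.05, SE, adjusted p = 0.000938) and the proliferation gene MKI67 (−0.41 ± 0.06, adjusted p = 0.00104) fell, and the mucin gene MUC5B (0.52 ± 0.10, adjusted p = 0.00892) rose. The summed levels of their lists overlapped between air and smoke: 51060 to 68320 against 51820 to 63370 for the basal list (6 of 7 genes in the table), 1490 to 3109 against 1180 to 2911 for the 6 cell cycle genes, and 12940 to 26050 against 12210 to 27200 for the goblet list (5 of 6 genes in the table). Their part in the rise of the NRF2 targets was not tested.

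HMOX1 (ENSMMUG00000007221) encodes haem oxygenase 1, which breaks down haem to biliverdin, carbon monoxide and iron. After 1 day it measured 37.1, 113, 73.4 and 67.6 normalized counts in the air libraries of S1 to S4, and 52.0, 229.8, 143 and 73.8 in their smoke libraries. The step was largest in S2 and S3 and smallest in S4, and the groups overlapped because the animals differed in air already. The log2 difference was 0.64 ± 0.16 in the paired 1-day fit (SE, adjusted p = 0.0264) and ± 0.44 without the animal (adjusted p = 1).

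Sulfiredoxin and the thioredoxin reductases keep peroxide-removing peroxiredoxins working. SRXN1 (ENSMMUG00000047391), which repairs over-oxidized peroxiredoxins, measured 1646, 2282, 1634 and 2044 normalized counts in air and 2164, 3088, 2314 and 2402 in smoke. The animals rose by similar amounts (0.23 to 0.50 in log2), and S2 in air lay within the smoke range. Its log2 difference was 0.39 ± 0.04 in the paired 1-day fit (SE, adjusted p = 0.000207) and ± 0.13 without the animal, where its p ranked 62 of 14062 genes. TXNRD1 (ENSMMUG00000012091), which reduces cytosolic thioredoxin with NADPH, measured 838, 869.9, 789.9 and 868 in air and 913, 997, 955 and 898 in smoke. The groups did not overlap, and the difference was small (0.16 ± 0.05, SE, paired 1-day fit, adjusted p = 0.0486). TXNRD3 (ENSMMUG00000001714), a thioredoxin and glutathione reductase best known from testis, measured 41.2, 36.9, 40.5 and 85.4 in air and 63.2, 40.3, 56.8 and 101 in smoke. It was higher in each animal and did not pass (0.36 ± 0.16, SE, paired 1-day fit, adjusted p = 0.182).

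Glutathione synthesis is limited by glutamate-cysteine ligase, which has a catalytic subunit (GCLC) and a modifier subunit (GCLM). GCLC (ENSMMUG00000008684) measured 4835, 4447, 2399 and 3199.7 normalized counts in air and 5959, 6012, 3071 and 3721 in smoke. S3 was lowest and S1 and S2 were highest in both groups, and each animal was higher in smoke. The log2 difference was 0.33 ± 0.04 in the paired 1-day fit (SE, adjusted p = 0.000267) and ± 0.36 without the animal. GCLM (ENSMMUG00000013857) was at 861 to 1220.4 in air and 923 to 1338 in smoke, and its difference was the smallest of the 9 (0.10 ± 0.04, SE, paired 1-day fit, adjusted p = 0.124).

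NQO1 and AKR1C1 act on quinones and carbonyls, and PGD provides NADPH. NQO1 (ENSMMUG00000019684), which reduces quinones without releasing a radical intermediate, measured 477, 499.8, 543 and 615 normalized counts in air and 709, 622, 698 and 712 in smoke. All 4 smoke libraries lay above all 4 air libraries (0.37 ± 0.06, SE, paired 1-day fit, adjusted p = 0.00299). AKR1C1 (ENSMMUG00000023282), an aldo-keto reductase of ketosteroids and reactive aldehydes, measured 3085, 2927, 2892 and 3045 in air and 3739, 4010.3, 3816 and 3408 in smoke. These groups did not overlap either (0.32 ± 0.04, SE, adjusted p = 0.000955). Over all genes tested, 1.51% had all 4 smoke libraries above all 4 air libraries, as did NQO1, AKR1C1 and TXNRD1. AKR1C1 has close paralogs, and reads they share could have been divided between them, so its value is uncertain; the paralog AKR1C2 rose too (0.36 ± 0.06, adjusted p = 0.00267). PGD (ENSMMUG00000023029), phosphogluconate dehydrogenase of the pentose phosphate pathway, measured 3283, 4381, 3836 and 3993 in air and 3932, 5596, 4849 and 4615 in smoke. Each animal was higher by 0.21 to 0.35 in log2 (0.29 ± 0.03, SE, adjusted p = 0.000287).

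**Figure D2:**
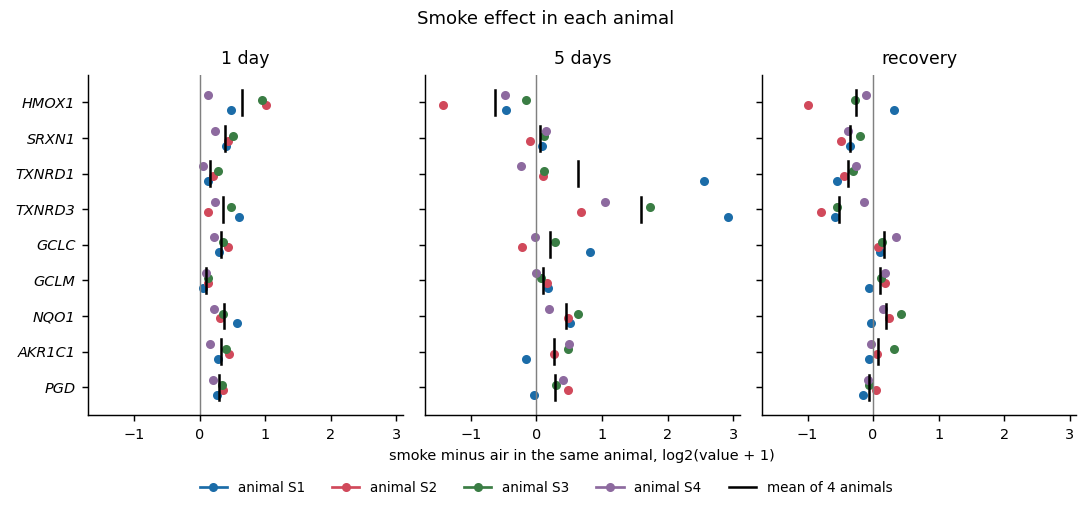
Smoke minus air in the same animal on the log2(value + 1) scale, for each of the 9 genes at 1 day, 5 days and recovery; points are animals and black bars the mean of 4. At 1 day all 36 points lie above 0, at 5 days 25 do, and after recovery 14 do, with TXNRD1 and TXNRD3 of S1 highest at 5 days.

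After 5 daily exposures the members no longer shared a direction. NQO1 and TXNRD3 were higher in smoke in 4 of 4 animals, HMOX1 was lower in 4 of 4, and 25 of 36 pairs were higher. Over all genes 9.54% were higher and 9.91% lower in all 4 animals. With library totals made equal, 29 of 36 pairs were higher. Then 5 members were higher and 1 lower in 4 of 4 animals, while SRXN1, TXNRD1 and GCLC were mixed. The share over all genes was not taken with equal totals. In the fit of 24 libraries without the animal 0 of 9 passed (limma), against 0.0711% of all genes. There 2 members had an unadjusted p under 0.05, as did 1306 of 14062 genes. With the animal added TXNRD3 rose, where 1.69% of all genes changed in either direction. In the paired fit of the 5-day libraries alone 0 of 9 passed, as did 0 of all genes. An unadjusted p under 0.05 was held there by 2 members and by 822 of 14062 genes.

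TXNRD3 had the largest difference. It measured 9.63, 23.3, 23.8 and 50.2 normalized counts in air and 79.6, 38.0, 81.2 and 105 in smoke, a mean of 26.7 ± 16.9 against 75.9 ± 27.8 (SD, n = 4). Each animal was higher in smoke, S1 by 2.92 in log2 and the others by 0.68 to 1.73, while S2 in smoke stayed below S4 in air. The S1 air value of 9.63 lay below the filter value of 10, in the library that stood apart over all genes. The log2 difference was 1.59 ± 0.26 with the animal (SE, 24 libraries, adjusted p = 0.00571) and ± 0.44 without it (adjusted p = 0.204). The call with the animal was lost without S3 or without S4. With the animal and without the S1 air library at 5 days it was 1.20 ± 0.18 (adjusted p = 0.000583). TXNRD3 was also at its lowest in the 5-day air group: the air means were 51.0, 26.7 and 82.7 at 1 day, 5 days and recovery, and the smoke means 65.2, 75.9 and 61.0.

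Among the marker lists at 5 days, the summed level of the 7 multiciliogenesis genes was 565.7 to 1269 in air and 635.6 to 2353 in smoke. That of the 6 cell cycle genes was 298.2 to 996.5 in air and 367.1 to 1652 in smoke, and that of the squamous list (5 of 6 genes in the table) was 23010 to 57860 in air and 17660 to 26610 in smoke. Their part in the TXNRD3 difference was not tested.

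HMOX1 lay in the other direction. It measured 103, 109, 92.0 and 104 normalized counts in air and 74.2, 40.0, 82.3 and 73.9 in smoke, and all 4 smoke libraries lay below all 4 air libraries, as in 1.65% of all genes. S2 in smoke was far below the others. The log2 difference did not pass with the animal (−0.63 ± 0.37, SE, 24 libraries, adjusted p = 0.366) or without it (± 0.44, adjusted p = 0.667).

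For TXNRD1 and GCLC a single air library set the 5-day estimate. TXNRD1 measured 142, 803, 701 and 878 normalized counts in air and 841, 858, 761 and 747 in smoke. Apart from S1 in air, both groups lay in the same range, and the log2 difference of 0.63 ± 0.33 with the animal became 0.02 ± 0.08 without that library (SE, adjusted p = 0.942). GCLC measured 2473, 5886, 1834 and 3996 in air and 4355, 5034, 2241 and 3926 in smoke, with S1 and S3 higher and S2 and S4 lower. Its difference of 0.21 ± 0.18 with the animal became −0.03 ± 0.13 without the same library (SE, adjusted p = 0.928). SRXN1 was at 1465 to 2047 in air and 1589.8 to 1947 in smoke (0.06 ± 0.07, SE, 24 libraries with the animal, adjusted p = 0.658). GCLM was at 757 to 1135 and 752 to 1272 (0.10 ± 0.07, adjusted p = 0.456).

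NQO1, AKR1C1 and PGD were higher in smoke in 3 or 4 animals at 5 days. NQO1 measured 328, 588, 353 and 502 normalized counts in air and 466, 827, 549 and 575 in smoke and did not pass (0.46 ± 0.15, SE, 24 libraries with the animal, adjusted p = 0.104). AKR1C1 measured 3036, 2982, 2612 and 2377 in air and 2714, 3581, 3632 and 3360.3 in smoke, and PGD measured 4061, 4533, 3602 and 3766 in air and 3947, 6354, 4410.4 and 4971 in smoke. As deposited, both were higher in S2, S3 and S4 and lower in S1. The normalized totals of S1 at 5 days were 15.20 M in air and 13.09 M in smoke. With library totals made equal, both were higher in S1 as well. With the animal and without the S1 air library at 5 days, AKR1C1 (0.37 ± 0.10, adjusted p = 0.0326), PGD (0.38 ± 0.06, adjusted p = 0.000583) and TXNRD3 rose, 3 of 9. In this fit 2.96% of all genes rose and 6.26% changed in either direction. Fitted on the 5-day libraries alone and without S1, 4 members rose with the animal as a term, where 1.46% of all genes rose: TXNRD3, NQO1, AKR1C1 and PGD.

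The smoke effect averaged over 1 day and 5 days passed for 3 members with the animal in the fit of 24 libraries: TXNRD3 (0.98 ± 0.18, SE, adjusted p = 0.0133), PGD (0.29 ± 0.06, adjusted p = 0.0177) and SRXN1 (0.23 ± 0.05, adjusted p = 0.0458), against 0.91% of all genes. All 3 calls were lost without S2, S3 or S4. With the animal and without the S1 air library at 5 days it passed for 5, with NQO1 (0.38 ± 0.10, adjusted p = 0.0198) and AKR1C1 (0.35 ± 0.07, adjusted p = 0.00341) added, against 8.16% of all genes. Without the animal 0 of 9 passed (limma; 5 had an unadjusted p under 0.05, as did 775 of 14062 genes), against 0.0853%.

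**Figure D3:**
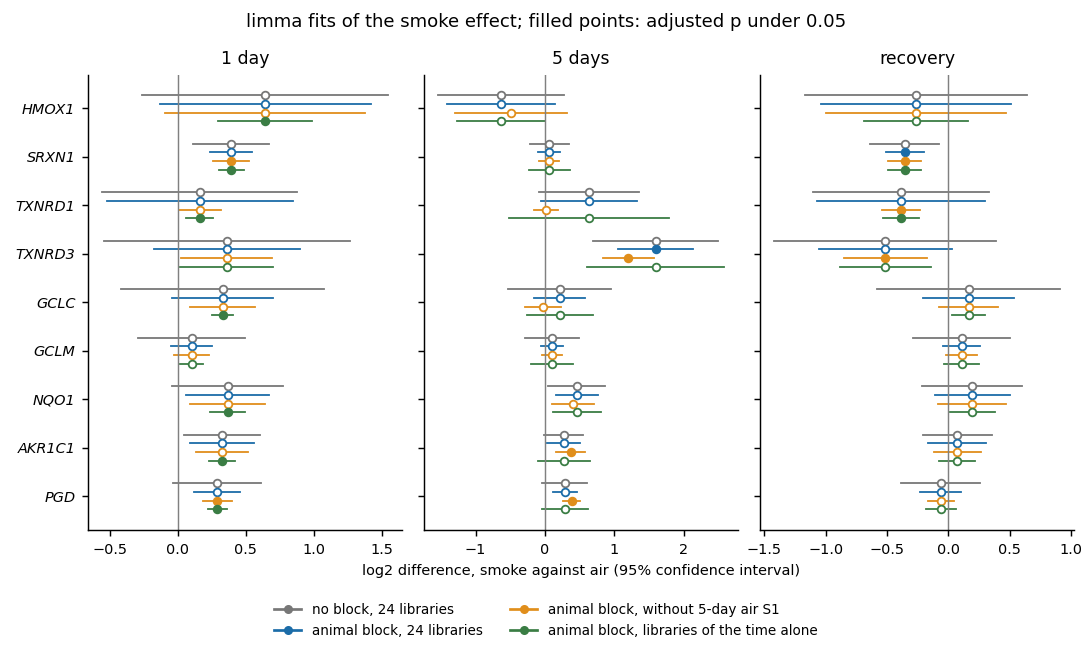
Log2 difference of smoke against air with its 95% confidence interval for each member at the 3 times (one panel each, own axis range) in 4 limma fits: 24 libraries without the animal (grey), with the animal (blue), with the animal and without the S1 air library at 5 days (orange), and the libraries of that time alone with the animal (green); filled points have an adjusted p under 0.05. No grey point is filled, 7 green points are filled at 1 day, and at 5 days the TXNRD1 estimate moves from 0.63 to 0.02 when the S1 air library is left out.

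After 7 days of recovery SRXN1, TXNRD1 and TXNRD3 were lower in smoke in 4 of 4 animals. GCLC was higher in 4 of 4, and 14 of 36 pairs were higher. Over all genes 18.9% were higher and 19.4% lower in all 4 animals. With library totals made equal, 15 of 36 pairs were higher, and 2 members were higher and 3 lower in 4 of 4 animals. In the fit of 24 libraries without the animal 0 of 9 passed (limma), against 0.242% of all genes. An unadjusted p under 0.05 was held there by 1 member and by 1197 of 14062 genes. SRXN1 and TXNRD1 fell in the paired fit of the recovery libraries, 2 of 9 lower where 9.91% of all genes were lower and 18.8% changed in either direction, and both fell in that fit when any 1 animal was left out.

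SRXN1 measured 2481, 2996, 2256 and 2743 normalized counts in air and 1943, 2126, 1972 and 2103 in smoke. All 4 smoke libraries lay below all 4 air libraries, as in 4.37% of all genes, and the smoke libraries lay closer together than the air libraries. The log2 difference was −0.36 ± 0.06 in the paired fit of the recovery libraries (SE, adjusted p = 0.00276). It was ± 0.07 in 24 libraries with the animal (adjusted p = 0.0106, against 3.41% of all genes), a call lost there without S2, S3 or S4, and ± 0.13 without the animal (adjusted p = 0.38).

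TXNRD1 measured 1539.6, 1746, 1304 and 1279.6 normalized counts in air and 1050.2, 1285, 1057 and 1073 in smoke. S2 was highest in both groups, and of the smoke libraries only that of S2 reached into the range of the air libraries. The log2 difference was −0.39 ± 0.07 in the paired fit of the recovery libraries (SE, adjusted p = 0.00266). In 24 libraries with the animal it did not pass (± 0.33, adjusted p = 0.597), and it did with the S1 air library at 5 days left out (± 0.07, adjusted p = 0.0013, against 18.8% of all genes). TXNRD3 measured 83.2, 58.0, 73.0 and 117 in air and 55.5, 33.1, 49.6 and 106 in smoke, lower in each animal and overlapping between groups. Its difference did not pass in the recovery libraries (−0.51 ± 0.17, SE, adjusted p = 0.0533) and passed in the 24 libraries with the animal and without the S1 air library at 5 days (adjusted p = 0.0301).

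The basal and cell cycle marker lists did not overlap between the groups after recovery. The summed level of the basal list was 47010 to 56590 in air and 16100 to 35580 in smoke, and that of the 6 cell cycle genes was 614.3 to 658.4 in air and 214.3 to 528.4 in smoke (exact permutation p = 0.0286 for each, adjusted p = 0.343). In the paired fit of the recovery libraries the basal keratin gene KRT5 fell (−1.22 ± 0.13, SE, adjusted p = 0.000166) and the ciliated gene FOXJ1 rose (0.53 ± 0.07, adjusted p = 0.000728). In that fit 18.8% of all genes changed in either direction. The summed level of the ciliated list (6 of 8 genes in the table) overlapped, at 7219 to 16550 in air and 8082 to 23000 in smoke (exact permutation p = 0.4286, adjusted p = 0.9). The part of these markers in the falls of SRXN1, TXNRD1 and TXNRD3 was not tested.

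The other 6 members did not pass at recovery in any of these 4 fits. HMOX1 measured 66.5, 235, 79.8 and 63.2 normalized counts in air and 83.0, 117, 65.9 and 58.6 in smoke. S2 in air was far above the rest. Smoke minus air was 0.316 in S1, −0.998 in S2, −0.272 in S3 and −0.108 in S4 on the log2 scale. GCLC was at 2391 to 5095 in air and 2614 to 5482 in smoke (0.16 ± 0.06, SE, paired recovery fit, adjusted p = 0.0794), and passed with library totals made equal (adjusted p = 0.0474). NQO1 was at 446 to 627 and 436 to 710.1 (0.20 ± 0.08, adjusted p = 0.127), and GCLM at 1172 to 1718 and 1116 to 1951 (0.11 ± 0.07, adjusted p = 0.274). AKR1C1 was at 3273 to 4255 and 3152 to 5169.6 (0.07 ± 0.07, adjusted p = 0.501), and PGD at 4878 to 6774 and 4377 to 6967 (−0.06 ± 0.06, adjusted p = 0.473).

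Whether the smoke effect itself differed between times was tested as a difference of differences. From 1 day to recovery, a comparison added after the data had been seen, SRXN1 turned from higher to lower (−0.75 ± 0.11, SE, 24 libraries with the animal, adjusted p = 0.00178), where 1.22% of all genes changed, and the call was lost there without S2, S3 or S4. Without the animal 0 of 9 passed (limma, SRXN1 adjusted p = 0.197), against 0.00711% of all genes. There 1 member had an unadjusted p under 0.05, as did 743 of 14062 genes. In the paired fit of the 1-day and recovery libraries the smoke effect of 4 members decreased: SRXN1 (adjusted p = 0.000462), TXNRD1 (−0.55 ± 0.10, SE, adjusted p = 0.00444), PGD (−0.35 ± 0.07, adjusted p = 0.0075) and TXNRD3 (−0.87 ± 0.21, adjusted p = 0.0182). In that fit the smoke effect decreased in 4.84% of all genes and changed in 8.26%. For PGD it was 0.29 at 1 day and −0.06 at recovery, where smoke against air did not pass. The split over all genes was 481 higher and 680 lower as deposited, and 1035 higher and 400 lower with equal totals, with which the 4 members passed as well. In this paired fit SRXN1 passed whichever animal was left out, TXNRD1 was lost without S3, PGD without S3 or S4, and TXNRD3 without any 1 of the 4.

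From 5 days to recovery TXNRD3 turned from higher to lower (−2.11 ± 0.37, SE, 24 libraries with the animal, adjusted p = 0.00344) and SRXN1 turned lower (−0.42 ± 0.11, adjusted p = 0.0327). In this fit 3.56% of all genes changed in either direction. The TXNRD3 call was lost without S3 or S4, and the SRXN1 call without S2, S3 or S4. Both calls were also lost in the paired fit of the 5-day and recovery libraries alone (TXNRD3 adjusted p = 0.0513, SRXN1 adjusted p = 0.123). There 0 of 9 passed (limma; 3 had an unadjusted p under 0.05, as did 2094 of 14062 genes), against 0.519%. With the animal and without the S1 air library at 5 days, PGD (−0.45 ± 0.08, adjusted p = 0.000974) and TXNRD1 (−0.40 ± 0.11, adjusted p = 0.021) passed as well, against 11.3% of all genes. Without the animal 0 of 9 passed (limma; 3 had an unadjusted p under 0.05, as did 1608 of 14062 genes), against 0.348%. From 1 day to 5 days 0 of 9 passed without the animal (limma), against 0.0142% of all genes. There 0 members had an unadjusted p under 0.05, where 513 of 14062 genes did. With the animal 0 of 9 passed (3 had an unadjusted p under 0.05, as did 1311 of 14062 genes), against 0.0427%. For HMOX1, higher in every animal at 1 day and lower in every animal at 5 days, this change did not pass (−1.28 ± 0.53, SE, with the animal, adjusted p = 0.48). These contrasts share their libraries with the comparisons at each time.

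The members also differed between times in filtered air. From 5 days to recovery 6 of 9 rose in the fit of 24 libraries without the animal, where 5.87% of all genes rose and 11.3% changed: TXNRD3 (1.76 ± 0.44, SE, adjusted p = 0.0147), TXNRD1 (1.50 ± 0.35, adjusted p = 0.0103), GCLM (0.63 ± 0.19, adjusted p = 0.0376), SRXN1 (0.62 ± 0.13, adjusted p = 0.00715), PGD (0.52 ± 0.16, adjusted p = 0.0365) and AKR1C1 (0.47 ± 0.14, adjusted p = 0.0291). Without 1 animal or 1 of these air libraries 2 to 6 of them passed, the fewest (2) without S3 or without S4. The 5-day and recovery means were 631 ± 334 and 1467 ± 219.5 normalized counts for TXNRD1, and 3990.2 ± 408 and 5734 ± 784 for PGD (SD, n = 4). With the animal and without the S1 air library at 5 days the TXNRD1 difference was 0.88 ± 0.08 (adjusted p = 2.41e-07). HMOX1 (−0.11 ± 0.44, adjusted p = 0.898), NQO1 (0.29 ± 0.20, adjusted p = 0.33) and GCLC (0.28 ± 0.36, adjusted p = 0.642) did not pass. The 8 air libraries alone, fitted with the animal, gave 0 of 9 (limma), against 0.0284% of all genes. There 6 members had an unadjusted p under 0.05, as did 2777 of 14062 genes. Without S1 6 members rose in this fit, where 10.7% of all genes did. From 1 day to 5 days in air TXNRD3 fell (−1.03 ± 0.26, SE, 24 libraries with the animal, adjusted p = 0.0117), a call lost without S3 or S4. In this fit 19.4% of all genes changed in either direction. Without the animal 0 of 9 passed (limma; 1 had an unadjusted p under 0.05, as did 3503 of 14062 genes), against 3.98%. The air groups at 5 days and recovery are also the controls of the smoke comparisons at those times.

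Animals kept their order for several members across treatments and times. S2 had the highest GCLM and PGD in all 6 groups and the highest HMOX1, SRXN1 and TXNRD1 in 5 of 6. S4 had the highest TXNRD3 in all 6 groups, and S2 the lowest in 5. S3 had the lowest GCLC in all 6 groups, and S1 the lowest NQO1 and PGD in 5. At 1 day, as deposited, S4, the youngest animal, had the smallest difference of the 4 for HMOX1, NQO1, SRXN1, AKR1C1, PGD, TXNRD1 and GCLC. This is a description with 1 animal at each age, and the order was not taken with equal totals. Normalized totals in air and smoke at 1 day were 11.84 and 12.83 M in S1 and 12.45 and 13.48 M in S2. They were 12.21 and 12.81 M in S3, and 12.62 and 12.87 M in S4.

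The genes most like each member were named by the Pearson correlation of their 12 animal-matched differences (4 animals at 3 times). They were C7H15orf39 for HMOX1 (0.919), RRS1 for NQO1 (0.91), PRPF40B for SRXN1 (0.94), UTP4 for AKR1C1 (0.945, with its paralog AKR1C2 next at 0.94) and XRCC6 for PGD (0.961). They were GOLGA5 for TXNRD1 (0.988), TRIM16 for GCLM (0.888), GPRASP1 for GCLC (0.935) and the transferrin receptor gene TFRC for TXNRD3 (0.95). No member was among the 3 genes most like another member. Of the 27 places (3 genes for each member) 8 held the same gene when the 5-day pair of S1 was left out. Between members, AKR1C1 and PGD correlated at 0.769, and at 0.752 without that pair. SRXN1 and TXNRD1 correlated at 0.334, and at 0.859 without it, and PGD and TXNRD1 at −0.044 and 0.777. These correlations share animals, libraries and scaling, and are given as a description.

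The wider pathway was read from 66 other genes in 8 lists by role, of which 61 were tested. After 1 day 46 of 61 were above 0, with a median log2 difference of 0.11, against 0.33 for the 9 members and 0.00 over all genes. Members and lists were chosen with earlier results of these data known, so these medians and counts are a description. Without the animal 0 of 61 passed (limma; 1 had an unadjusted p under 0.05, as did 265 of 14062 genes). In the paired 1-day fit 20 rose and 4 fell, where 4.25% of all genes rose and 4.86% fell. With equal totals 5 rose and 7 fell, against 1.37% and 12.9% of all genes, so the direction of these calls depended on the scaling. The 5 were the glutathione transferase gene GSTA4 (0.53 ± 0.06, SE, as deposited, adjusted p = 0.000267), the glutathione peroxidase gene GPX2 (0.26 ± 0.05, adjusted p = 0.00645), AKR1C2, the ferritin light chain gene FTL (0.23 ± 0.04, adjusted p = 0.00228) and the aldehyde dehydrogenase gene ALDH3A1 (0.36 ± 0.04, adjusted p = 0.00028), the last named after its value was seen.

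The counts by role are of the paired 1-day fit as deposited, where 4.25% of all genes rose. With equal totals 1.37% of all genes rose, and of the rises in this paragraph only those of GSTA4, GPX2, AKR1C2, FTL and ALDH3A1 passed. By role, 3 of 6 NADPH genes rose. Among them were TALDO1 (0.14 ± 0.03, SE, adjusted p = 0.0187) and TKT (0.16 ± 0.04, adjusted p = 0.017), which act beside PGD in the pentose phosphate pathway. ME1 (0.11 ± 0.06) and IDH1 (0.07 ± 0.03) did not pass. Of the 8 haem and iron genes 4 rose, FTL, FTH1 (0.17 ± 0.03, adjusted p = 0.00867), FECH (0.20 ± 0.05, adjusted p = 0.0296), whose product inserts iron to form haem, and the biliverdin reductase gene BLVRB (0.13 ± 0.04, adjusted p = 0.0391), while BLVRA (0.21 ± 0.06) did not pass. Of the 8 thioredoxin genes 2 rose, TXN (0.17 ± 0.04, adjusted p = 0.0227) and the peroxiredoxin gene PRDX1 (0.17 ± 0.03, adjusted p = 0.00288). TXNIP, which binds and inhibits thioredoxin, fell (−0.18 ± 0.03, adjusted p = 0.00388) and was named after its value was seen, and GLRX (−0.09 ± 0.04) and PRDX6 (0.04 ± 0.03) did not pass. Of the 10 quinone and carbonyl genes 4 rose, AKR1C2, ALDH3A1, AKR1B10 (0.19 ± 0.04, adjusted p = 0.00921) and PTGR1 (0.12 ± 0.03, adjusted p = 0.0262), and UGDH (−0.23 ± 0.05, adjusted p = 0.00948) and EPHX1 (−0.12 ± 0.03, adjusted p = 0.0327) fell. Of the 11 glutathione genes 3 rose, GSTA4, GPX2 and GSTP1 (0.11 ± 0.03, adjusted p = 0.0406), and SLC7A11 (0.34 ± 0.28), the cystine transporter that feeds glutathione synthesis, and GPX4 (0.03 ± 0.07) did not pass. TKT, FTH1, AKR1B10 and GSTP1 were named after their values were seen.

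The regulators gave no common direction. After 1 day NFE2L2 (0.05 ± 0.03) and KEAP1 (−0.04 ± 0.06) did not pass in the paired 1-day fit (SE). The gene of the repressor BACH1 (0.25 ± 0.05, adjusted p = 0.0119), the small MAF gene MAFF (0.23 ± 0.07, adjusted p = 0.0491) and SQSTM1 (0.13 ± 0.03, adjusted p = 0.0272), whose product binds KEAP1, rose. MAFK fell (−0.23 ± 0.07, adjusted p = 0.0426), and NFE2L1 (−0.08 ± 0.03) did not pass. With equal totals 0 of the 10 rose and 2 fell, MAFK (−0.32 ± 0.07, adjusted p = 0.00682) and NFE2L1 (−0.16 ± 0.04, adjusted p = 0.00599). Of the 5 efflux and feedback genes OSGIN1 rose (0.29 ± 0.07, adjusted p = 0.0307), a call lost with equal totals. ABCC1 (0.02 ± 0.04), ABCC3 (0.26 ± 0.08) and ABCC4 (−0.10 ± 0.12) did not pass. The other antioxidant genes SOD1 (0.13 ± 0.05), SOD2 (−0.07 ± 0.03) and CAT (0.03 ± 0.04) did not pass.

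At 5 days 30 of 61 pathway genes were above 0, with a median of 0.00. Without the animal 0 passed (limma; 6 had an unadjusted p under 0.05, as did 1306 of 14062 genes). With the animal MAFF fell (−0.64 ± 0.16, SE, 24 libraries, adjusted p = 0.0429), and SLC7A11 did not pass (1.43 ± 0.43, adjusted p = 0.0848). With the animal and without the S1 air library at 5 days 4 of 61 rose and 2 fell, where 2.96% of all genes rose and 3.3% fell. GPX2 (0.60 ± 0.10, adjusted p = 0.00154), AKR1C2 (0.56 ± 0.09, adjusted p = 0.00169), ALDH3A1 (0.82 ± 0.17, adjusted p = 0.008) and RBX1 (0.28 ± 0.08, adjusted p = 0.0483), a subunit of the ligase that marks NRF2 for degradation, were the 4, RBX1 and ALDH3A1 being named after their values were seen. MAFF (−0.58 ± 0.16, adjusted p = 0.0335) and NFE2L1 (−0.19 ± 0.05, adjusted p = 0.0223) fell.

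After recovery 42 of 61 were above 0 (median 0.12, against −0.06 for the members and 0.01 over all genes). Without the animal 0 passed (limma; 1 had an unadjusted p under 0.05, as did 1197 of 14062 genes). In the paired fit of the recovery libraries 14 rose and 5 fell, where 8.93% of all genes rose and 9.91% fell. With equal totals 16 rose and 4 fell, against 10.8% and 8.86% of all genes. Of the 8 genes listed with thioredoxin 4 rose, TXN (0.39 ± 0.07, SE, adjusted p = 0.00315), PRDX1 (0.26 ± 0.06, adjusted p = 0.0135), PRDX6 (0.24 ± 0.06, adjusted p = 0.0151) and PRDX5 (0.33 ± 0.06, adjusted p = 0.00341), while TXN2, TXNRD2, TXNIP and GLRX did not pass. TXN encodes thioredoxin, and the PRDX genes encode peroxiredoxins. Of the 5 efflux and feedback genes 3 fell: OSGIN1 (−0.46 ± 0.09, adjusted p = 0.00582), ABCC1 (−0.44 ± 0.08, adjusted p = 0.0044) and ABCC3 (−0.31 ± 0.10, adjusted p = 0.0412). SLC7A11 (−0.52 ± 0.14, adjusted p = 0.0253) and MAFF (−0.35 ± 0.09, adjusted p = 0.0227) fell, while GPX2 (0.33 ± 0.08, adjusted p = 0.0113), UGDH (0.41 ± 0.08, adjusted p = 0.00643), FTL (0.27 ± 0.07, adjusted p = 0.0151) and IDH1 (0.23 ± 0.07, adjusted p = 0.0288) rose. In air, from 5 days to recovery, 2 of 61 rose and 3 fell without the animal, where 5.87% of all genes rose and 5.47% fell, with SLC7A11 (3.23 ± 0.65, adjusted p = 0.00421) and TRIM16 (0.98 ± 0.21, adjusted p = 0.00738) higher and SQSTM1 (−0.72 ± 0.18, adjusted p = 0.0144), PRDX5 (−0.82 ± 0.23, adjusted p = 0.0249) and GSTM3 (−1.28 ± 0.41, adjusted p = 0.0466) lower. PRDX5, TRIM16 and GSTM3 were named after their values were seen.

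**Figure D4:**
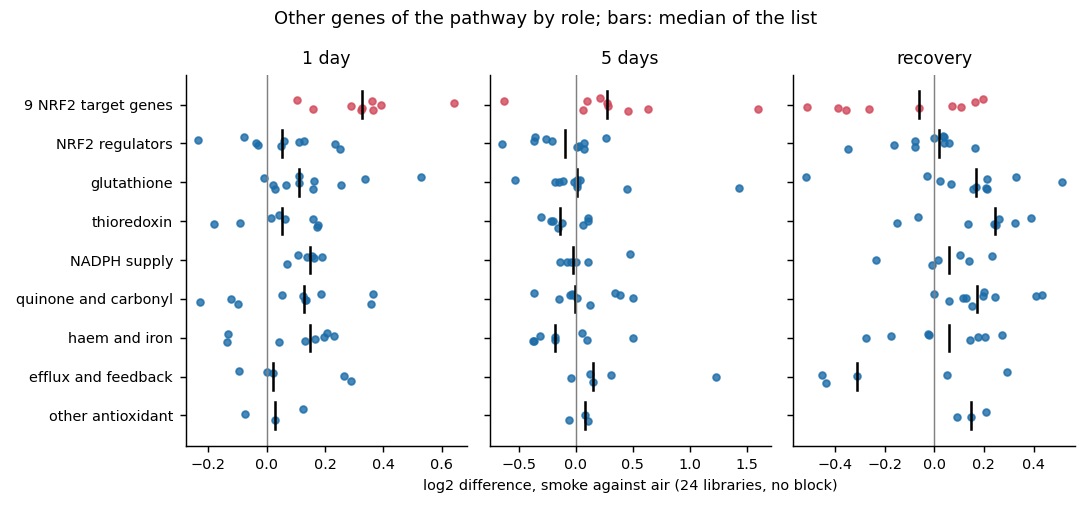
Log2 difference of smoke against air (24 libraries, without the animal) for the 9 members (red) and the 61 other pathway genes by role (blue) at 1 day, 5 days and recovery, each panel with its own range; points are genes and bars the median of a list. The median of the members is 0.33 at 1 day, 0.27 at 5 days and −0.06 after recovery.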

How the data were processed

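Signal values for 35432 genes in 24 libraries were read from 1 table of the whole series. Per the submitters' processing notes, FastQC, Trim Galore, Bowtie2 and RSEM were used; no version, genome build or annotation was given in the sources used here. The deposited signal values are described as raw but were normalized by the authors: they are not whole, each library's median ratio to the geometric mean was 1.009, and 81.4 to 85.3% of low values (below 15 and from 0.5 to 8 steps) were whole multiples of a step within 0.1 of it, so reads were not recovered and no count model was used. Scaling to a common ratio hides differences in total RNA, so equal library totals were an alternative.

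Log2(value + 1) was fitted with limma 3.58.1 (R 4.3.3, mean-variance trend) over 24 libraries by group, for genes at 10 or more in at least 4 libraries, with Benjamini-Hochberg adjustment over 14062 genes and a threshold of 0.05, in 9 contrasts, 1 of them added after the data were seen. The script was tested on simulated data. Same-numbered libraries come from the same animal by the labels, and their deviations from the group means correlated at 0.303 to 0.804 (60 pairs), against −0.443 to 0.015 between animals (180 pairs), so fits with the animal as a block are given beside the others. Alternatives changed the block, the libraries fitted, scaling, filter, pseudocount, trend and library weights, and left out each animal and library. Nothing says that the cultures of an animal were replicated. Without the animal, p-values set a difference against the spread between libraries within groups, pooled over all groups fitted. That spread holds differences between animals and the noise of single libraries, and the libraries of an animal are treated as independent. With the animal as a term, the spread is how far the differences between groups varied from animal to animal, together with the noise of single libraries. It too is pooled over all groups fitted. The members and gene lists were chosen with earlier results of these data known. Pathway genes were named as the 4 with the smallest p per list over the smoke comparisons with the block, plus NFE2L2, KEAP1 and BACH1, and the 3 genes most like each member by correlation. One gene that this rule names is not reported here. Marker lists were summed per library and compared by exact permutation tests, 36 in all (Python 3.11.15, SciPy 1.17.1). No sequence was used.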

Additional observations from a re-analysis of the deposited data

Results flagged for a closer look

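Of 54 groups of 4 libraries (9 genes in 6 groups) 6 held a library far from the other 3 on the log2 scale, where chance flags about 1 group in 20. HMOX1 was low in smoke at 5 days in S2 (39.98 normalized counts), and NQO1 was low in smoke at 1 day in S2 (621.8). TXNRD1 was low in air at 5 days in S1 (142.2), the library that stood apart over all genes, and high in smoke at recovery in S2 (1285). GCLC was low in smoke at recovery in S3 (2614), an animal with the lowest GCLC in all 6 groups, and TXNRD3 was high in air at 1 day in S4 (85.43), an animal with the highest TXNRD3 in all 6 groups.

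In 5 cases all 4 animals moved one way under smoke at one time and the opposite way at another. HMOX1 was higher at 1 day and lower at 5 days, a change of −1.275 in log2 that did not pass (limma, adjusted p = 0.953 without the animal and 0.48 with it). TXNRD3 was higher at 5 days and lower at recovery (−2.108), which passed with the animal (adjusted p = 0.00344) and not without it (adjusted p = 0.15). From 1 day to recovery SRXN1 (−0.747), TXNRD1 (−0.547) and TXNRD3 (−0.874) went from higher to lower. In the paired fit of the 1-day and recovery libraries these passed (limma, adjusted p = 0.000462, 0.00444 and 0.0182), and without the animal in 24 libraries none did. The cases were picked by their direction, so these p-values do not stand as a separate test.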

How the results depend on the processing

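Without the animal, 0 members passed at 1 day, 5 days or recovery, in the mean of 1 and 5 days, or in the changes between times, under any scaling, filter, pseudocount or trend tried. With the replicate block in 24 libraries the counts were 0 at 1 day, 1 at 5 days, 1 at recovery, 3 in the mean, 2 from 5 days to recovery, 1 from 1 day to recovery and 1 in air from 1 to 5 days. With the animal as a random effect they were 0, 1, 1, 1, 1, 1 and 1, and with library weights 1 in the mean and 1 from 1 day to recovery. With the replicate block and without the S1 air library at 5 days they were 2, 3, 3, 5, 4, 4 and 1. Without that library and without the block 1 member (TXNRD1, lower) passed at recovery, so leaving out single libraries there gave 0 to 1. With the block and leaving out each animal in turn the ranges were 0 to 2, 0 to 3, 0 to 2, 0 to 5, 0 to 3, 0 to 3 and 0 to 2.

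In the libraries of a contrast alone with the replicate block the counts were 7 at 1 day, 2 at recovery, 4 from 1 day to recovery, and 0 at 5 days, in the mean, from 5 days to recovery and in both air contrasts. With equal totals they were 6, 3 and 4 for the first 3, and 0 in air from 5 days to recovery. Leaving out each animal there gave 5 to 6 at 1 day, 0 to 4 at 5 days, 2 to 2 at recovery, 0 to 4 in the mean, 0 to 3 from 5 days to recovery, 1 to 4 from 1 day to recovery, 0 to 1 in air from 1 to 5 days and 0 to 6 in air from 5 days to recovery, each highest count at 5 days, in the mean and in air coming without S1. In air from 5 days to recovery the 24 libraries gave 6 (4 with no filter), their own libraries without the block 0, and leaving out an animal or library 2 to 6.

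Log2 differences that changed sign had these ranges over the fits without 1 animal or 1 library: GCLM −0.013 to 0.21 (1 day); SRXN1 −0.010 to 0.15, TXNRD1 −0.007 to 0.92, GCLM −0.048 to 0.23, GCLC −0.056 to 0.50 (5 days); HMOX1 −0.46 to 0.17, AKR1C1 −0.053 to 0.19, PGD −0.18 to 0.043, GCLM −0.035 to 0.23, GCLC −0.072 to 0.41 (recovery); HMOX1 −0.54 to 0.090 (air from 5 days to recovery). With the replicate block, TXNRD1 at 5 days was −0.007 without S1, AKR1C1 at recovery −0.012 without S3, HMOX1 in air from 5 days to recovery 0.063 without S1 and 0.090 without S4, and, without the S1 air library at 5 days, GCLC at 5 days −0.030 and that HMOX1 value 0.036. The first 4 were the same in their own libraries. Library weights gave −0.040 for TXNRD1 and −0.007 for GCLM at 5 days. None of these passed.

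Over all genes the calls without the block, with it, and in the contrast's own libraries with it numbered 4, 11 and 1281 at 1 day, 10, 237 and 0 at 5 days, 34, 480 and 2650 at recovery, and 1595, 3991 and 4 in air from 5 days to recovery. Equal totals moved the median of all genes by over 0.1 from 1 to 5 days (from 0.008 to 0.163) and in air from 1 to 5 days (from 0.002 to −0.143). Depth in reads is not known. A rough estimate from the step of the low values was 9.5 to 17.2 M, lowest in the S1 air library at 5 days. The cause of these differences was not tested.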
